A study of Mus musculus with 32 samples.

Results

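Peaks that an input filter takes out of an eCLIP data set are the subject here: 13627 of the 88005 peaks that CLIPper called in 10 libraries made with an antibody against IGF2BP3 in mouse leukemia cells. A peak counts as removed when its chromosome, start, end and strand stand in the unfiltered list of its library and not in the filtered list of the same library. The members were thus chosen by measured values, namely their overlap with peaks of size-matched input (smInput), and no result on that overlap is reported as a test. Lin- cells contributed 8372 removed peaks of 49504 (16.9%), and CD11b+ cells 5255 of 38501 (13.6%). Every removed peak is accounted for in the counts that follow, and none was dropped for a low value.

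IGF2BP3 is an RNA-binding protein studied here for its part in leukemia driven by the fusion protein MLL-Af4. In eCLIP, RNA crosslinked to the protein with UV light is recovered by immunoprecipitation and sequenced, and smInput libraries come from a small share of each sample set aside by the authors at that step. There were 6 eCLIP libraries from Lin- cells (3 biological, numbered 1 to 3, and 3 technical, 4 to 6) and 4 from CD11b+ cells (2 biological, 1 and 2, and 2 technical, 3 and 4), each with an smInput library of its own. RNA-seq of 6 libraries per cell type, 3 with and 3 without *Igf2bp3*, gave the expression values. The Lin- cells were lineage-depleted bone marrow cells of mice, infected with the retrovirus MSCV-MLL-flag-Af4, selected in 400 μg/ml of G418 over 7 days and kept in culture. The CD11b+ cells were taken with magnetic beads from splenic tumors of mice with WT/MLL-Af4 leukemia, which was raised by transplanting bone marrow infected with the same retrovirus. In both models the fusion thus came from a viral promoter and not from its own locus. The cells came from spleen although the names of their eCLIP libraries begin with bm, as do those of the Lin- libraries. All eCLIP libraries have "no treatment" as their treatment. Sequencing depth per library is unknown, since peak lists hold no total read count.

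Marker genes in the RNA-seq tables were read as the authors' mean normalized counts over all 6 libraries of a cell type, with no spread and with each table scaled on its own. In CD11b+ cells *Lyz2*, which encodes lysozyme, was listed at 72146 and *Csf1r*, the receptor of a macrophage growth factor, at 15008, against 20990 and 7910 in Lin- cells. *Itgam*, which encodes CD11b itself, was listed at only 17.0 in CD11b+ cells and was absent from the Lin- table, so the defining marker was near the bottom of the scale in cells selected for its protein. The progenitor genes *Kit*, *Cd34* and *Flt3* were at 6974, 9052 and 9396 in Lin- cells and at 673, 1291 and 390 in CD11b+ cells. The granule genes *Elane* and *Prtn3*, counted among progenitor markers too, went the other way, from 14416 to 43055 and from 14582 to 29591, *Mpo* was at 101212 and 84102, and the 6 progenitor markers summed to 155632 and 159102. Of the 4 T-cell markers, none exceeded 14.8 in either table, the 4 erythroid genes summed to 176 and 2381, and the 4 B-cell genes to 10033 and 4821, nearly all of it *Ighm*. Megakaryocyte genes summed to 2389 in Lin- and 59.8 in CD11b+ cells. What part other cells had in the removed peaks was not tested.

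Small nucleolar RNAs (snoRNAs) guide the chemical modification and cleavage of ribosomal RNA in the nucleolus, and small Cajal body RNAs (scaRNAs) do the same for the small nuclear RNAs of the spliceosome. Most are cut out of introns of host genes, many of which encode ribosomal proteins or translation factors. They are short, abundant and bound by their own core proteins, and so are common in input libraries of crosslinking experiments.

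The removed peaks were mostly peaks on small noncoding RNAs. By the midpoint of the peak on its own strand, 6252 of the 8372 removed Lin- peaks (74.7%) and 3777 of the 5255 removed CD11b+ peaks (71.9%) lay in an exon of a noncoding RNA gene, against 12.7% and 8.51% of kept peaks. Introns held 16.3% and 24.0% of the removed peaks and 65.4% and 78.6% of the kept ones. Coding exons took 382 and 42 removed peaks, 3′ UTRs 132 and 45, 5′ UTRs 200 and 120, other exons 15 and 0, and places outside annotated genes 23 and 10. Read the other way, 54.5% of all Lin- peaks in noncoding RNA exons and 57.2% of those in CD11b+ cells were removed, but only 4.84% and 4.61% of intronic peaks. Several removed peaks often lay at the same place. Merged over libraries they formed 887 Lin- and 789 CD11b+ regions, of which 50.3% and 54.0% were in noncoding RNA exons. Introns held 36.5% and 39.0% of these regions.

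In Lin- libraries the share of removed peaks in noncoding RNA exons ran from 68.6% over a median of 73.2% to 82.1%, and that of kept peaks from 7.73% over 12.7% to 19.1%. In CD11b+ libraries 1 to 4 the removed shares were 76.7%, 67.5%, 77.4% and 69.8%, and the kept shares 6.41%, 10.02%, 6.43% and 11.1%. Every library had the higher share among its removed peaks, and the removed and kept ranges did not overlap in either cell type. Over the 5 biological libraries the mean was 72.9% ± 5.04 (SD, n = 5) of removed and 9.81% ± 3.06 of kept peaks, a difference of 63.0 points in the same direction in 5 of 5 libraries (two-sided exact sign-flip permutation, p = 0.0625, adjusted p = 0.188 over 9 tests). Joining neighboring peaks, a choice made after seeing the data, gave 50.6 points. With 5 libraries, 0.0625 is the smallest p this test can give, so none of the comparisons of removed with kept peaks could reach 0.05.

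For introns the removed share was 11.9% to 18.9% in Lin- libraries (median 17.7%), against 48.2% to 77.0% of kept peaks (median 73.3%). The CD11b+ libraries 1 to 4 had 19.4%, 28.4%, 18.96% and 25.6% of their removed peaks in introns, against 75.5%, 80.4%, 77.5% and 80.9% of their kept peaks. All 10 libraries thus had fewer removed than kept peaks in introns, by share, and the ranges lay apart. The difference over biological libraries was -52.4 points (19.8% ± 5.16 of removed and 72.2% ± 11.3 of kept peaks, n = 5), negative in 5 of 5 libraries (exact sign-flip permutation, p = 0.0625, adjusted p = 0.188). It was -43.5 with neighboring peaks joined, also chosen after seeing the data.

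Coding exons and 3′ UTRs were also less common among removed peaks, by smaller margins and not in every library. In Lin- libraries 1 to 3 coding exons held 4.86%, 1.66% and 8.81% of removed and 7.20%, 17.6% and 8.20% of kept peaks, and in CD11b+ libraries 1 and 2 0.967% and 0.874% of removed and 2.52% and 1.89% of kept peaks. Of these 5 libraries only Lin- library 3 had the higher share among removed peaks, as had the technical Lin- library 6. The difference was -4.04 points (3.43% ± 3.42 of removed and 7.48% ± 6.29 of kept peaks, n = 5; 4 of 5 libraries; exact sign-flip permutation, p = 0.125, adjusted p = 0.188). Lin- library 2 alone stood at -15.9 points, and without it the mean was -1.08. When a peak counted for a coding exon as soon as it touched one, the mean was -29.5, and with neighboring peaks joined, a choice made after seeing the data, -1.83. Without *Kmt2a* and *Aff1*, also chosen after seeing the data, it was -3.95 (exact p = 0.0625), negative in all 5 libraries. Kept peaks were longer than removed ones, and the part of length in the count by touch was not tested.

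In 3′ UTRs lay 2.40%, 1.92% and 0.734% of the removed peaks of Lin- libraries 1 to 3 and 2.15%, 4.53% and 3.26% of their kept peaks. For CD11b+ libraries 1 and 2 the removed shares were 0.290% and 1.05% and the kept shares 12.4% and 5.40%. Of these 5 libraries Lin- library 1 alone had the higher share among removed peaks, and the CD11b+ libraries had the widest gaps. The difference was -4.28 points (1.28% ± 0.865 of removed and 5.56% ± 4.04 of kept peaks, n = 5; 4 of 5 libraries; exact sign-flip permutation, p = 0.125, adjusted p = 0.188). Leaving out CD11b+ library 1 gave -2.31, and leaving out the gene *Lars2*, chosen after seeing the data, -4.93 (exact p = 0.0625), negative in all 5 libraries. The 3′ UTR differences averaged -1.63 points in Lin- and -8.25 in CD11b+ libraries (exact label permutation of 3 against 2 libraries, p = 0.1, the smallest possible, unadjusted). The same comparison of cell types for the other 7 measures gave exact p of 0.5 to 1.

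By class, snoRNA genes carried 4874 removed peaks in Lin- cells, 58.2% of all removed peaks, and 2842 in CD11b+ cells, 54.1%. These were 67.5% and 70.5% of the peaks on snoRNA genes, where the share over all peaks was 16.9% and 13.6%. The snoRNA share of removed peaks ran from 51.2% over a median of 58.9% to 63.3% in Lin- libraries and from 52.7% to 57.1% in CD11b+ libraries. No other class came close: small nuclear RNAs followed with 489 and 309 removed peaks, scaRNAs with 378 and 294, genes annotated as miRNA with 273 and 143, the mixed class misc_RNA, which holds 7SK and related transcripts, with 142 and 90, and sense intronic RNAs with 113 and 93.

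The classes differed in how much of their signal the filter took. Among scaRNA peaks 60.9% were removed in Lin- and 65.9% in CD11b+ cells. Small nuclear RNAs, the RNA components of the spliceosome, lost 31.2% and 33.4%, and miRNA genes 31.0% and 35.9%. Sense intronic RNAs, transcripts annotated within introns, lost 113 of 140 (80.7%) and 93 of 139 (66.9%), a higher share than snoRNAs in Lin- cells. Only 3 genes of this class had a removed peak in each cell type. A region assigned to *Gm28967* of this class, but lying inside the gene Scarna10, held 75 removed Lin- peaks and 31 removed CD11b+ peaks. The ribozyme class, which holds the RNA parts of RNase P and RNase MRP, lost 34 of 43 and 31 of 35 peaks. Long intergenic noncoding RNAs lost 68 of 771 Lin- peaks (8.82%, against 16.9% of all) and 61 of 407 CD11b+ peaks (15.0%, against 13.6%). Their CD11b+ share ran from 4.10% to 29.8% by library. *Gm26917*, in library 3 only, and *Malat1*, in library 4 only, both annotated in this class, had 29 and 19 removed CD11b+ peaks. The class of processed transcripts in exons counted as noncoding lost 0 of 113 and 0 of 49.

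Counted by gene, 240 of the 323 snoRNA genes with any Lin- peak had a removed peak, and 80 had removed peaks only. In CD11b+ cells 211 of 302 had a removed peak and 103 had no other kind. The remaining 160 and 108 genes carried removed and kept peaks side by side. Of scaRNA genes, 15 of 24 and 14 of 22 had a removed peak, and of small nuclear RNA genes 47 of 260 and 37 of 176.

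SnoRNAs come in C/D-box and H/ACA-box kinds, which guide methylation and pseudouridylation. A gene was called C/D when TGATGA stood in its first 20 nt and CTGA in its last 20 nt, and ACA when ACA started within the last 7 nt, both on the gene's strand and the second only where the first call failed. Of the 255 snoRNA and scaRNA genes with a removed Lin- peak, 82 (32.2%) were C/D, 123 (48.2%) ACA and 50 neither. In CD11b+ cells the counts were 78 (34.7%), 100 (44.4%) and 47 of 225. Over all 1558 annotated genes of these types, with a median length of 128 nt, 20.2% were C/D, 43.8% ACA and 36.0% neither, so both kinds of box were well represented under the removed peaks.

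Within these genes the removed peaks sat centrally. When each gene was divided into 3 equal parts, 59.0% of the 1408 removed Lin- peaks on C/D genes had their midpoint in the middle part, against 38.3% of 1020 kept peaks. On ACA genes the shares were 50.9% of 2836 removed and 35.6% of 714 kept peaks. The CD11b+ values were 64.7% against 32.3% on C/D genes and 52.8% against 32.2% on ACA genes. Kept peaks were more often at the 5′ part of the gene, with 36.8% (Lin-) and 39.8% (CD11b+) of kept C/D peaks there against 16.1% and 17.6% of removed ones. These positions were looked at after the classes were known and carry no test.

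Sequences of a gene of each kind are shown, read from the RefSeq GRCm38.p6 genome on the minus strand at chr7:15938762-15938870 and chr4:132352322-132352526. Each has most removed Lin- peaks among the genes in which the search found the boxes of that kind, chosen after its values were seen. Genes with as many or more, such as *Rnu3b4*, did not pass the search for C/D boxes. Capitals mark the boxes that the search found.
Snord23: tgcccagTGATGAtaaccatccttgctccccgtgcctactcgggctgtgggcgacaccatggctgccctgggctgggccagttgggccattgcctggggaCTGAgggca
Snora73b: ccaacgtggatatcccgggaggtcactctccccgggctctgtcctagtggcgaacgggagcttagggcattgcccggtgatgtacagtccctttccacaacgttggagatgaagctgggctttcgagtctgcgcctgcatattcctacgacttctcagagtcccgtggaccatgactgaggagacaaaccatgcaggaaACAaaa
Snord23 had 41 of 49 Lin- peaks removed and lies in *Nop53*, which encodes a factor of ribosome assembly. Snora73b, which takes part in the cleavage of precursor ribosomal RNA, had 92 of 102 Lin- peaks and 56 of 58 CD11b+ peaks removed, and lies within *Snhg3*, named for hosting such RNAs.

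The strongest single peak of the data set was a removed one. It lay on *Rnu3b4*, a gene of the U3 snoRNA, which is needed to release the small-subunit ribosomal RNA, at chr11:87462286-87462500 inside *Tex14*. Its highest read number was 25016 in Lin- and 12925 in CD11b+ cells, and 72 of 75 and 31 of 37 of its peaks were removed. In CD11b+ cells it did not lead, since a removed peak of library 2 that was not assigned to it had 19298 reads. Other small RNAs with many removed peaks in all libraries of their cell type were *Snora73a* (72 of 92 Lin- and 52 of 54 CD11b+ peaks), *Snora70* in the ribosomal protein gene *Rpl10* (60 of 61 and 46 of 47) and *Snora28* in *Eif5*, which encodes a translation initiation factor (53 of 53 and 46 of 46). Among scaRNAs, *Scarna6* in the autophagy gene *Atg16l1* had 64 of 102 and 41 of 57 peaks removed. *Snora70* and *Snora28* kept the fewest of these, and *Scarna6* kept the most.

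The gene name in a peak is that of the host more often than that of the small RNA. Of the removed peaks on snoRNA and scaRNA genes, 27.9% in Lin- and 30.3% in CD11b+ cells carried the name of the small RNA itself, and 56.0% and 54.2% that of a protein-coding gene. Of the small RNA genes concerned, 180 of 255 and 161 of 225 lay inside a protein-coding gene on the same strand. Over all removed peaks, 60.2% and 60.7% were named by a protein-coding gene, 17.7% and 17.6% by a snoRNA gene, and 284 and 146 by identifiers that the annotation does not hold. A count by gene name alone would therefore show mainly messenger RNAs.

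By the gene name in the peak, 816 of 8214 genes with a Lin- peak had at least 1 removed peak (9.93%) and 270 lost every peak (3.29%). For CD11b+ cells these were 668 of 7635 (8.75%) and 294 (3.85%). Only 29 and 33 of the genes that lost every peak had had a single one. The rule of membership fixes these counts, and nothing further is read from them.

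Of the genes that lost every peak, those with most peaks were small RNA genes and genes with removed peaks on small RNAs. In Lin- cells these were *Rpl6*, for a protein of the large ribosomal subunit (49 peaks), the small nuclear RNA gene *Gm24497* (47), *Cbwd1* (36), *Snhg3* (33), *Tomm20*, for a receptor of mitochondrial protein import (32), and the snoRNA host *Snhg5* (31). *2410006H16Rik* lost 28, *Trmt10c*, for a tRNA methyltransferase, 27, and the snoRNA *Gm24044* 27. In each of these genes the removed midpoints were all in noncoding RNA exons and present in 6 of 6 libraries. *Trmt10c* lost 3, 8, 2, 3, 9 and 2 peaks in Lin- libraries 1 to 6, all of them on the snoRNA *Gm22422*.

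In CD11b+ cells the corresponding genes were the ribosomal protein genes *Rpl27a* (48 peaks), *Rplp2* (29) and *Rpl12* (29), the scaRNA *Gm22009* (30), and the snoRNA hosts *Epb41l4aos* (28), *Snhg3* (27) and *2410006H16Rik* (24). They also included *Ncl*, for the nucleolar protein nucleolin (27), and *Tcp1*, for a subunit of a cytosolic chaperonin (21). *Rpl27a* lost 10, 14, 11 and 13 peaks in libraries 1 to 4. All 4 libraries contributed to each of these genes, and *Snhg3* and *2410006H16Rik* stood in both lists.

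The fixed gene lists separated in the same way. On 28 genes that host or encode small nuclear and nucleolar RNAs, 591 of 684 Lin- peaks (86.4%) and 349 of 412 CD11b+ peaks (84.7%) were removed, all with their midpoint in a noncoding RNA exon, against 16.9% and 13.6% of all peaks. *Gas5*, which hosts a series of C/D snoRNAs, lost 100 of 104 and 57 of 60 peaks, *Snhg12* 120 of 130 and 68 of 74, *Snhg17* 91 of 104 in Lin- cells, and *Scarna2* 33 of 51. *Scarna10* lost 26 of 29 CD11b+ peaks, and *Rn7sk*, the 7SK RNA that holds an elongation factor inactive, 25 of 26. Translation factors and ribosomal proteins, 24 genes, lost 707 of 1282 Lin- peaks (55.1%, against 16.9%) and 415 of 648 CD11b+ peaks (64.0%, against 13.6%), of which 703 and 406 lay in noncoding RNA exons. On the 24 genes the messenger RNA itself thus supplied almost none of the removed peaks.

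Within that list *Rpsa*, for a small-subunit ribosomal protein, lost 125 of 148 Lin- peaks and 51 of 74 CD11b+ peaks over 11 and 7 separate regions. *Eif4a2*, for an RNA helicase of translation initiation, lost 106 of 122 and 63 of 75. *Eif4a1*, its close relative, lost 81 of 99 and 31 of 50, *Ncl* 63 of 86 in Lin- cells, *Rpl13a* 61 of 70 and 53 of 55, and *Eif5* 37 of 40 in CD11b+ cells. In CD11b+ libraries 1 to 4 *Rpsa* lost 10 of 12, 19 of 28, 7 of 8 and 15 of 26 peaks. Library 3 was highest by share and library 4 lowest.

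Lists of other messenger RNAs lost a smaller share than the 16.9% of all Lin- and 13.6% of all CD11b+ peaks in the 4 cases that follow. Splicing factors and hnRNPs, 42 genes, lost 6 of 1170 Lin- peaks (0.513%), all on *Mbnl1*, a regulator of alternative splicing, and 16 of 638 CD11b+ peaks (2.51%), on *Mbnl1* and *Ddx5*, an RNA helicase. Cytoskeletal and housekeeping genes lost 21 of 451 and 15 of 189 peaks, of which *Hspa8*, a chaperone gene with snoRNAs in its introns, had 19 and 11. *Fth1*, for ferritin, lost 2 in each cell type and *Actb*, for actin, 2 in CD11b+ cells. Replication-dependent histones lost 13 of 204 and 1 of 15, with *Hist2h2aa1* at 11 and *Hist1h1e* at 2 of the Lin- peaks. The 15 CD11b+ histone peaks are too few to set that list apart from the 13.6% of all peaks. Myeloid granule and effector genes lost 3 of 85, all on the Fc receptor gene *Fcgr3*, and 0 of 94.

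Chromatin regulators lost 220 of 1253 Lin- peaks (17.6%), of which 168 were on *Kmt2a*, and 51 of 684 CD11b+ peaks (7.46%), near the share over all peaks in Lin- (16.9%) and below it in CD11b+ cells (13.6%). *Chd4*, which encodes a remodeler of the NuRD complex and hosts a scaRNA, lost 40 of 55 and 18 of 19, *Chd8* 5 of 35 and 6 of 23, and *Chd3* 4 of 16 and 5 of 11. *Trrap*, for a scaffold of histone acetyltransferases, lost 0 of 39 Lin- peaks and 22 of 63 CD11b+ peaks, and those came from CD11b+ libraries 2 and 4 only, with 11 of 14 and 11 of 13. Of 13 transcripts tested in the study, 1 of 97 and 0 of 71 peaks were removed, and of the IGF2BP family and its let-7 partners 1 of 15 and 0 of 13, the former a 5-read intronic peak of *Igf2bp3* in Lin- library 4, chosen after its values were seen. The 15 and 13 peaks of that list are too few to set it apart from the 16.9% and 13.6% of all peaks. Mitochondrial transcripts had 0 peaks of any kind.

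Long noncoding RNAs lost 84 of 799 Lin- peaks (10.5%, against 16.9% of all) and 84 of 447 CD11b+ peaks (18.8%, against 13.6%), in each cell type from 4 genes. *Gm42418* is annotated by RefSeq as a sequence related to the 18S ribosomal RNA, on chromosome 17. It lost 39 of 107 Lin- peaks, with up to 6112 reads, but only 8 of 110 CD11b+ peaks. Its neighbor *Gm26917* had peaks in CD11b+ library 3 only, 29 of 50 removed, and *Malat1*, a nuclear RNA, had CD11b+ peaks in library 4 only, 19 of 53 removed. In Lin- cells *Malat1* lost 2 of 181 and *Neat1*, the RNA scaffold of paraspeckles, 10 of 75. *Epb41l4aos* lost 33 of 42 and 28 of 28. These 2 genes with peaks in a single CD11b+ library led the CD11b+ genes by number of removed regions, 29 and 19.

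The same ranking by removed regions was led in Lin- cells by *Aff1* (22) and *Kmt2a* (13), the genes whose parts form the transduced fusion, followed by *Rpsa* (11), *Gas5* (10), *Nop58*, for a core protein of C/D snoRNAs (10), *Eif4a2* (8), *Gm42418* (8), *D230017M19Rik* (7), *Tex14* (7) and *Cdk8*, for a kinase of the Mediator complex (6). In CD11b+ cells *Cdk6* (14), *Rassf4* (9), *Gas5* (9), *Eif4a2* (8), *2410002F23Rik* (8), *Cdk8* (7), *Rpl13a* (7) and *Rpsa* (7) came after *Gm26917* and *Malat1*. *Cdk6*, a cell cycle kinase gene, and *Rassf4*, for a protein that binds Ras, lost peaks in introns without an annotated small RNA.

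*Kmt2a* and *Aff1* lost 273 of 2063 peaks in Lin- cells (13.2%, against 16.9% of all peaks) and 0 of 70 in CD11b+ cells (against 13.6%). *Kmt2a* encodes the histone methyltransferase MLL and *Aff1* the elongation factor AF4. In Lin- libraries 1 to 6 *Kmt2a* lost 33 of 101, 2 of 120, 47 of 80, 29 of 76, 2 of 113 and 55 of 83 peaks, and *Aff1* 30 of 283, 0 of 320, 40 of 265, 16 of 146, 0 of 336 and 19 of 140. Libraries 2 and 5 kept nearly all peaks on both genes, while the other 4 lost many. All 168 removed *Kmt2a* peaks lay in coding exons 1 to 3 of 36, and all 105 removed *Aff1* peaks in coding exons 12 to 21 of 21, that is, in the 5′ part of the first gene and the 3′ part of the second, the order in which an MLL-Af4 fusion joins them. Kept Lin- peaks reached from coding exon 1 to 9 of *Kmt2a* and from 6 to 21 of *Aff1*. Of the removed regions in these 2 genes, the one with most peaks was chr9:44880848-44880980 in *Kmt2a*, with 67 removed peaks in 4 libraries. Reads from the transduced construct and from the endogenous genes cannot be told apart in these coding exons.

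The removed region with most peaks in Lin- cells was none of the above. It was the 3′ UTR stretch chr9:123461942-123462149 of *Lars2*, for the mitochondrial leucyl-tRNA synthetase, with 83 removed peaks in 6 libraries. In libraries 1 to 6 *Lars2* lost 25 of 28, 21 of 24, 3 of 4, 7 of 7, 24 of 27 and 3 of 4 peaks, and in CD11b+ libraries 1 to 4 it lost 1 of 2, 5 of 6, 1 of 2 and 5 of 7. All 83 Lin- peaks of *Lars2* that were removed lay in this stretch, which is 83 of the 132 removed 3′ UTR peaks of Lin- cells. The 30 nt under its densest removed peaks, chr9:123461946-123461975 on the plus strand, are shown because they stand elsewhere in the genome too. All are in capitals because at least 80% of the highest number of overlapping removed peaks (6) lay on each base.
Lars2 3′ UTR: AGAAAAGTTACCACAGGGATAACTGGCTTG
The same 30 bases stand 8 times in the reference chromosomes, counting both strands, and removed peaks lay on 2 of the copies, this and a copy at chr12:78351084-78351113 in an intron of *Gphn*, which encodes a scaffold protein of synapses.

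Other removed regions present in all 6 Lin- libraries and ranked by number of peaks were led by a stretch in *Peak1*, a pseudokinase gene, at chr9:56223620-56223806 (78 peaks, up to 16705 reads). Next came chr6:125186411-125186603 (75) in the condensin gene *Ncapd2*. It lies inside Scarna10 (chr6:125186359-125186683) and was assigned to the overlapping *Gm28967*. Snora73a (72) and Snora73b (65) in *Snhg3*, *Gm25395* (64) and *Scarna6* (60) in *Atg16l1*, *Gm24497* in *D230017M19Rik* (60), *Gm26165* in *Snx5* (60) and *Snora70* in *Rpl10* (60) followed. Apart from *Lars2*, each of these regions was assigned to a noncoding RNA exon by most of its peaks, although the *Peak1* peak with 16705 reads had its own midpoint in the intron. In CD11b+ cells the list was led by *Gm22009* in *Kpna4*, for a nuclear import receptor, at chr3:69085228-69085358 (61 peaks in 4 of 4 libraries), followed by Snora73b (56), Snora70 (46), Scarna6 (41) and an intron of *Cdk6* at chr5:3480253-3480411 (41), the only region of the first 10 outside annotated noncoding RNA. *Gm26165* (36), *Gm23297* in *Nap1l4* (34), *Gm23547* in *Phb2* (33), *Gm23639* in *Epb41l4aos* (33) and *Gm28967* (31) completed it.

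The leading CD11b+ region is printed from the minus strand, with capitals on bases under at least 80% of the highest number of overlapping removed peaks (8), to show where in the scaRNA the peaks lay.
Gm22009 in Kpna4: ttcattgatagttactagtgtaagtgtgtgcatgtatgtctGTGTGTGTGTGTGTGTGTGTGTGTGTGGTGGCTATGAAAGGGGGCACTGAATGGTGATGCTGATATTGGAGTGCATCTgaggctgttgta
The capitals cover 78 of the 131 bases and include a run of GT repeats, the complement of CA repeats.

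Intronic removed peaks were divided into those with and those without CA repeats, a grouping made by the sequence itself. In the 100 nt around the midpoint, 397 of 1368 removed intronic Lin- peaks (29.0%) held ACACAC or CACACA on the strand of the peak, against 13.6% of kept intronic peaks. For CD11b+ cells these shares were 675 of 1261 (53.5%) and 21.3%. Among consecutive 100-nt windows tiled over the genes with peaks, 6.42% and 6.51% held either hexamer. The letters overlap each other within a repeat, and a match is a description of the sequence only.

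In Lin- libraries 1 to 6 the removed shares were 43.9%, 6.61%, 33.2%, 39.8%, 5.49% and 32.8%, and the kept shares 7.34%, 14.9%, 13.2%, 9.94%, 23.0% and 17.4%. Libraries 2 and 5 had the lower share among removed peaks, the other 4 the higher. In CD11b+ libraries 1 to 4 the removed shares were 43.8%, 58.5%, 51.5% and 53.3%, all above the kept shares of 12.3%, 25.8%, 16.8% and 29.5%. Removed and kept ranges were apart in CD11b+ cells and overlapped in Lin- cells. This view of intronic peaks alone was chosen after its values were seen and has no test.

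*Cdk6*, a known target of MLL fusions, supplied 155 of the removed intronic peaks in CD11b+ cells, 152 of them with a CA hexamer, and 49 in Lin- cells, all with one. It lost 3 of 10, 75 of 83, 6 of 10 and 71 of 75 peaks in CD11b+ libraries 1 to 4, and 10 of 10, 4 of 9, 12 of 15, 12 of 12, 2 of 12 and 9 of 13 in Lin- libraries 1 to 6. CD11b+ libraries 2 and 4 thus held most of the removed *Cdk6* peaks. The Lin- peaks formed a single region at chr5:3479819-3480414, inside which the 4 CD11b+ regions found in most libraries lay too. Through *Cdk6*, the list of 22 MLL fusion targets lost 181 of 657 CD11b+ peaks (27.5%) and 62 of 409 Lin- peaks (15.2%), against 13.6% and 16.9% of all peaks, the rest being 26 on *Zeb2*, a transcription factor gene, in CD11b+ cells and, in Lin- cells, 6 on *Runx2*, 2 each on *Runx1*, *Zeb2* and the survival gene *Bcl2*, and 1 on another gene.

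The removed intronic peak with most CA hexamers in each cell type is printed as its 100-nt window, plus strand, with ACACAC and CACACA in capitals, to show such repeats. They lie at chr2:43900381-43900480 in *Arhgap15*, which encodes a regulator of Rac, and at chr5:3479820-3479919 in *Cdk6*.
Arhgap15 intron, Lin-: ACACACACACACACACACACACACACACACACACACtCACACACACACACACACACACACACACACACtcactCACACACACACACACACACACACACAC
Cdk6 intron, CD11b+: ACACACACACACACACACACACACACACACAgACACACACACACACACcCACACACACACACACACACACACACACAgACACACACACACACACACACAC
Other CA-rich hosts, chosen after their values were seen, were *Rassf4* (64 removed intronic CD11b+ peaks, all with a hexamer), the interleukin receptor gene *Il17ra* (30, all), the amino acid transporter gene *Slc16a10* (30, all) and *Znrf1*, for a ubiquitin ligase (25 Lin- peaks, all). *Rassf4* lost 9 of 29, 34 of 36, 8 of 30 and 13 of 15 peaks in CD11b+ libraries 1 to 4, again with libraries 2 and 4 highest, and 6 of 42 in Lin- cells.

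The other group was by definition the peaks without a CA hexamer, and some hosts had such peaks only. *Zeb2* was mixed in CD11b+ cells, with a hexamer at 4 of its 26 removed intronic peaks. *Cdk8* lost 112 intronic peaks in Lin- and 63 in CD11b+ cells, *Cmss1* 73 and 40, and *Laptm5*, for a lysosomal membrane protein of blood cells, 26 and 29, with 0 hexamers in each. *Cdk8* peaks were removed in every library, 15 of 19, 23 of 25, 17 of 18, 20 of 24, 21 of 22 and 16 of 18 in Lin- libraries and 19 of 21, 17 of 19, 13 of 15 and 14 of 14 in CD11b+ libraries. These shares were high and alike in both cell types, unlike those of *Cdk6*. The densest removed stretch of *Cdk8* was chr5:146260996-146261067 (37 Lin- peaks), and a removed *Cdk8* peak reached 2966 reads. In *Cmss1* the stretch chr16:57391474-57391521 held 23, and a neighboring peak reached 2144 reads. *Laptm5* lost 8 of 12, 0 of 41, 8 of 25, 4 of 7, 0 of 31 and 6 of 19 peaks in Lin- libraries, with libraries 2 and 5 at 0. Within 100 nt of a noncoding RNA exon lay 143 of the 1368 removed intronic Lin- peaks (10.5%, against 0.941% of kept ones). In CD11b+ cells these were 65 of 1261 (5.15%, against 0.773%). *Peak1* alone supplied 65 of the 143 Lin- peaks.

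For many of these intronic peaks the sequence at the midpoint is not unique in the genome. The 30 nt around the midpoint stood more than once in the reference chromosomes for 48.2% of removed and 16.0% of kept intronic Lin- peaks. For CD11b+ cells the shares were 48.9% and 42.3%. In Lin- libraries the removed share ran from 34.4% over 51.3% to 53.2% and the kept share from 9.37% over 16.0% to 27.2%, with no overlap, while the CD11b+ ranges, 42.3% to 51.0% and 27.1% to 58.1%, overlapped. Without a CA hexamer 38.1% of removed and 9.45% of kept Lin- peaks had a further copy, and 31.2% and 34.6% in CD11b+ cells. *Cmss1* had 49 of 73 and *Peak1* 84 of 85 removed intronic Lin- peaks in sequence with a further copy, at most 4 and 7 copies, and *Cdk8* only 26 of 112. *Cdk6* had 47 of 49 in Lin- and 145 of 155 in CD11b+ cells, with a median of 89 and 115 copies. The 30 nt around most of its removed midpoints are thus not particular to the gene. Whether whole reads there had further copies was not tested. In noncoding RNA exons the order was the other way, with 24.5% of removed and 28.2% of kept Lin- peaks and 21.5% and 31.1% in CD11b+ cells. This search was chosen after the hosts were seen and has no test.

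Removed intronic peaks also stayed clear of splice sites. Of the kept intronic Lin- peaks 50.7% touched a coding exon on their strand, and 8.52% of the kept CD11b+ peaks. Among removed intronic peaks only 9 of 1368 (0.658%) and 10 of 1261 (0.793%) did so. In Lin- libraries the kept share ran from 35.6% over 52.2% to 62.8% and the removed share from 0.323% over 0.574% to 1.29%. CD11b+ libraries 1 to 4 had kept shares of 9.05%, 9.85%, 7.85% and 6.74% and removed shares of 0%, 1.03%, 0% and 1.32%. Removed and kept ranges lay far apart in both cell types, and the kept shares differed between the cell types without overlap. Removed peaks were shorter than kept ones, and the part of length in this contrast was not tested.

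Of the kept Lin- peaks at an exon border 10481 had the exon downstream, at the 3′ splice site of the intron, and 3140 upstream. Over 500 nt from any coding exon lay 88.5% of removed intronic peaks in each cell type, against 26.3% of kept peaks in Lin- and 67.6% in CD11b+ cells. The removed intronic peaks of the cell types were thus alike in this respect while the kept ones were not. Distances to exons were examined after the results on coding exons were seen, and no test was made.

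Over all places, CA hexamers did not separate removed from kept peaks. In Lin- libraries 1 to 3 either was held by 11.4%, 3.96% and 9.95% of removed and 6.36%, 9.44% and 10.8% of kept windows. For CD11b+ libraries 1 and 2 these were 11.5% and 19.9% of removed and 10.9% and 22.1% of kept windows. Removed windows were higher in library 1 of each cell type and lower in the other 3, with overlapping ranges. The mean difference was -0.588 points (11.3% ± 5.68 of removed and 11.9% ± 5.996 of kept windows, n = 5; negative in 3 of 5 libraries; exact sign-flip permutation, p = 0.688, adjusted p = 0.773). Its sign depends on which peaks count: without Lin- library 2 it was 0.634, and outside noncoding RNA exons, an alternative chosen after seeing the data, 16.1 (exact p = 0.125).

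GC content differed little. In Lin- libraries 1 to 3 removed windows had 50.4%, 50.3% and 51.3% GC and kept windows 50.1%, 54.4% and 51.6%, and in CD11b+ libraries 1 and 2 49.3% and 48.5% against 51.7% and 50.4%. Of these 5 libraries only Lin- library 1 had more GC in its removed windows, as had the technical Lin- libraries 4 and 6. Removed windows averaged 49.99% ± 1.07 GC and kept windows 51.6% ± 1.69 (n = 5), a difference of -1.64 points in 4 of 5 libraries (exact sign-flip permutation, p = 0.125, adjusted p = 0.188). Among biological libraries, Lin- library 2 had the lowest value at -4.02 and Lin- library 1 the highest at 0.335. Outside noncoding RNA exons the removed windows had more GC, by 1.43 points.

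Expression of the host genes did not separate removed from kept peaks in a single direction. The median of log10 mean normalized counts over peaks was 3.59, 3.44 and 3.64 for removed and 3.61, 3.53 and 3.56 for kept peaks in Lin- libraries 1 to 3, and 3.23 and 3.31 against 3.30 and 3.25 in CD11b+ libraries 1 and 2. Removed peaks were higher in 2 of these 5 libraries and lower in 3. The mean difference was -0.0053 (3.44 ± 0.173 and 3.45 ± 0.164, n = 5; exact sign-flip permutation, p = 0.813, adjusted p = 0.813). Among peaks with a CLIPper value below 0.001 it was -0.135, lower for removed peaks (exact p = 0.0625). Pooled peaks named by protein-coding genes had higher medians when removed, 4504 against 3911 in Lin- and 3139 against 1938 in CD11b+ cells. Counts are not per length, and only 70.6% and 72.6% of removed peaks had a gene with a value, against 92.4% and 94.5% of kept peaks. Removed peaks named by small RNA genes had one in 4.47% (Lin-) and 12.5% (CD11b+). The RNA-seq selected polyadenylated RNA, and its part in these missing values was not tested.

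Removed peaks came back in other libraries far more often than kept peaks. Of the removed peaks in Lin- libraries 1 to 3, 97.9%, 96.2% and 98.3% overlapped an unfiltered peak of another biological Lin- library, against 55.01%, 53.6% and 50.9% of the kept peaks. In CD11b+ libraries 1 and 2 the values were 98.9% and 86.3% against 47.7% and 42.3%. Removed and kept ranges did not overlap. The difference was 45.6 points (95.5% ± 5.27 and 49.9% ± 5.07, n = 5; 5 of 5 libraries; exact sign-flip permutation, p = 0.0625, adjusted p = 0.188), and outside noncoding RNA exons it was 43.1. Among peaks with a CLIPper value below 0.001 it fell to 28.7. Removed peaks also hold more reads, and the part of read number in this recurrence was not tested.

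Merged over libraries, the removed peaks formed 887 regions in Lin- and 789 in CD11b+ cells, with a median length of 54 and 51 nt and a median of 4 peaks. In Lin- cells 288 regions (32.5%) had a removed peak in all 6 libraries and 165 in a single library, and in CD11b+ cells 357 (45.2%) in all 4 and 154 in a single library. Of the regions found in every library, 213 of 288 and 254 of 357 were in noncoding RNA exons and 57 and 85 in introns. Of the Lin- regions 519 (58.5%) overlapped a removed region of CD11b+ cells, and of the CD11b+ regions 558 (70.7%) a removed region of Lin- cells.

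The same place could be removed in a library and kept in another. When removed and kept peaks were merged together, 401 of 824 Lin- regions with a removed peak were kept in at least 1 library, and 212 of 748 in CD11b+ cells. Removal in every library that had a peak there was seen for 315 and 427 regions. In Lin- cells the *Kmt2a* region above (4 libraries removed, 2 kept) came first by evenness of division, followed by Snord70 in *Nop58*. The Snord70 region, at chr1:59691942-59692013 on the plus strand, was removed in Lin- libraries 1 and 4 and kept in 2, 3, 5 and 6. In CD11b+ cells Snord23 came first, at chr7:15938790-15938831 on the minus strand, removed in libraries 1 and 3 and kept in 2 and 4. Snord70 and Snord23 are printed with capitals on bases under a removed peak, to show where in these regions the removed peaks lay. Which bases the kept peaks covered is not marked.
Snord70 in Nop58: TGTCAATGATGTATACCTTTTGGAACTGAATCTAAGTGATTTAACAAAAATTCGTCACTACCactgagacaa
Snord23 in Nop53: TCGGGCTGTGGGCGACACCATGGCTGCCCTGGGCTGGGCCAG
*Nop58* lost 13 of 18, 0 of 18, 1 of 11, 17 of 21, 0 of 15 and 1 of 8 peaks in Lin- libraries 1 to 6, with libraries 1 and 4 high and the others at or near 0.

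These pairs match how the filter drew on inputs. The removed peaks overlapped peaks of 2 smInput libraries, that of their own library and that of a partner: Lin- 1 with 4, 2 with 5 and 3 with 6, and CD11b+ 1 with 3 and 2 with 4. No kept peak of any library overlapped either of its pair, while 238 to 1151 kept peaks per Lin- library and 461 to 727 per CD11b+ library overlapped the input of some other library. Over all libraries 0 removed peaks lay clear of both inputs, although 10 in Lin- and 4 in CD11b+ cells met them on the opposite strand only. The widest imbalance was in the second Lin- pair: Lin- library 5, whose own input had only 217 peaks, lost 23 peaks to its own input alone, 1063 to that of library 2 alone and 290 to both, and library 2 lost 1220 to its own alone, 26 to the other alone and 317 to both.

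As the threshold was any overlap, the peaks just inside it shared 1 nt with an input peak, 6 to 12 per library, and those just outside it began 1 nt away, 1 to 15 per library. Within 10 nt of an input peak lay 46 to 102 kept peaks of each library and within 100 nt 143 to 336. Most removed peaks were well inside: 64.4% to 80.1% of those in a Lin- library, and 71.3% to 73.8% in a CD11b+ library, lay wholly within an input peak.

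Removed peaks were short and deep, which bears on the rule and is given as description. The median length per library was 10.5 to 26 nt for removed and 40 to 52 nt for kept Lin- peaks, and 14 to 22 and 48 to 54 nt in CD11b+ cells. Median reads per peak were 19 to 41 against 5 to 7, and 20 to 27 against 7 to 8. Removed peaks held 67.1% to 79.8% of all reads in peaks of a Lin- library over 4.86% to 15.5% of the covered length, and 47.4% to 63.0% in CD11b+ libraries over 5.51% to 8.01%. A minority of peaks and of bases thus carried most of the reads in the Lin- peak lists.

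The share of peaks removed differed among libraries by as much as between cell types. In Lin- libraries 1 to 3 it was 19.2% (95% Wilson interval 18.4% to 20.0%), 13.5% (12.9% to 14.1%) and 12.4% (11.7% to 13.03%), and in the technical libraries 4 to 6 25.9% (24.8% to 27.1%), 17.5% (16.7% to 18.3%) and 18.7% (17.7% to 19.8%). In CD11b+ libraries 1 to 4 it was 10.8% (10.2% to 11.5%), 14.6% (14.0% to 15.2%), 11.9% (11.2% to 12.6%) and 17.3% (16.5% to 18.1%). The cell types overlapped. Biological libraries averaged 15.0% ± 3.67 (SD, n = 3) and 12.7% ± 2.66 (n = 2), a difference of 2.31 points, which fell to 0.219 without Lin- library 1 and to 0.431 without CD11b+ library 1. The intervals cover counting error only.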

How the data were processed

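The authors trimmed reads, removed repeats, mapped to mm10 with STAR 2.5.3a, removed duplicates and called peaks per library with CLIPper. The deposited value of each peak, 0 to 0.05, was read from its place and range as the p-value that the authors' CLIPper run gave the peak against the reads of its gene, without later adjustment; it chose no member. The authors then removed peaks overlapping smInput peaks by at least 0.0001 of their length. The headers of the files give different settings of duplicate removal and peak calling for inputs. In the deposited expression tables the signal is the authors' DESeq2 mean of normalized counts over 6 RNA-seq libraries; their columns of log2 fold changes, standard errors, test statistics, p-values, adjusted p-values and marks for peaks on a gene were not used. The authors gave no versions of Bowtie2, DESeq2 and CLIPper. Reads per peak are the number in the peak name.

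Python 3.11.15 with NumPy 2.4.6, pandas 2.3.3, SciPy 1.17.1 and pyfaidx 0.9.0.4 compared coordinates of unfiltered and filtered lists. Midpoints were placed with GENCODE M21 basic, on the strand of the peak, in the order coding exon, 3′ UTR, 5′ UTR, noncoding RNA exon, other exon and intron, with exons of small RNA genes taken before the introns around them. Hexamers and GC were read in 100-nt windows of the RefSeq GRCm38.p6 genome. Overlapping peaks of a strand and cell type were joined to regions. Shares have 95% Wilson intervals, and overlaps need 1 nt.

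Tests used only biological libraries (3 Lin-, 2 CD11b+): exact sign-flip permutation of removed minus kept over 5 libraries with 32 sign patterns, or exact label permutation of 3 against 2 with 10 arrangements, all two-sided, adjusted by Benjamini-Hochberg over the 9 planned tests. The label permutation, planned for the removed share, is not reported as a test, because the rule of membership sets that share. Comparisons of the other 8 differences between cell types stand outside the 9 and are unadjusted. Technical libraries enter a test only in the alternative with all 10 libraries and in the search for libraries that stand apart. The scripts were tested on simulated data.

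The members, the 13 gene lists and the markers were chosen with earlier results of these data known. The lists were small nuclear and nucleolar RNA hosts, long noncoding RNAs, mitochondrial transcripts, MLL-Af4 transgene parts, MLL fusion targets, transcripts tested in the study, the IGF2BP family and let-7 axis, myeloid granule and effector genes, replication-dependent histones, translation factors and ribosomal proteins, cytoskeleton and housekeeping, splicing factors and hnRNPs, and chromatin regulators. Named genes are, per cell type, the 10 with most merged removed regions, the 10 with most peaks among those that lost every peak, the hosts of the 10 removed regions in most libraries, and up to 5 members of each list with a removed peak in at least 2 libraries. Other genes were chosen after their values were seen. A gene that met the rule is not reported here.

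Alternatives were all 10 libraries, each biological library left out, the difference of cell types within replicate numbers 1 and 2 as a replicate block, removed peaks that overlap no kept peak or overlap their own smInput, a CLIPper value below 0.001, other windows, overlaps and strands, an expression minimum of 10 with a pseudocount of 1, and annotated host genes. Chosen after seeing the data were joined peaks (gaps of up to 20 nt), distinct coordinates, peaks outside noncoding RNA exons, and peaks without *Lars2*, *Kmt2a* or *Aff1*.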

Additional observations from a re-analysis of the deposited data

Results flagged for a closer look

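A search of 54 groups of library values, technical libraries included, picked out 2 libraries, at a level passed by chance about 1 time in 20 per group. In CD11b+ library 2, 86.3% of removed peaks were found again in another library, against 97.0% to 98.9% in the other 3. Of those, 2 are technical libraries, which were compared with both biological libraries, including the one whose input the filter used for them, so the values of this group are not alike in kind.

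In Lin- library 5, 22.7% of removed peaks overlapped its own smInput, against 81.9% to 98.3% in the other 5 Lin- libraries. This overlap is what the filter used, so the level of the search does not apply to it and the value is description, not a test. The own input of the library had only 217 peaks. Neither library was left out.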

How the results depend on the processing

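Counting all 10 libraries as if independent, technical ones included, lowered the p of 6 results below 0.05 in exact sign-flip permutations: introns -52.3 (p = 0.00195), 3′ UTRs -4.17 (p = 0.00391), coding exons -4.21 (p = 0.00977), noncoding RNA exons 62.7 (p = 0.00195), GC -1.23 (p = 0.0469) and recurrence 35.0 (p = 0.00195). Technical libraries repeat biological ones, so these p are too small.

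The CA hexamer difference turned positive without Lin- library 2 (0.634), with joined peaks (2.81) and outside noncoding RNA exons (16.1), the latter 2 chosen after seeing the data, as was GC outside noncoding RNA exons (1.43). Host expression turned positive without Lin- library 2 (0.0145), without CD11b+ library 1 (0.0098) and as log10 of the mean plus 1 with means of at least 10 (0.0336).

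Leaving out each biological library in turn gave 0.219 to 4.20 for the removed share, -56.0 to -50.7 for introns, -5.41 to -2.31 for 3′ UTRs, -5.20 to -1.08 for coding exons and 61.2 to 64.4 for noncoding RNA exons. It gave -2.003 to 0.634 for CA hexamers, -2.13 to -1.04 for GC, -0.0264 to 0.0145 for host expression and 44.3 to 51.0 for recurrence. For recurrence, leaving out either CD11b+ library left only the 3 Lin- libraries, whose mean is the 44.3. The removed share was 3.64 points higher in Lin- cells within libraries 1 and 2 taken as a replicate block (equal to leaving out Lin- library 3, as the shared numbers are not known to mark a batch), 4.23 with all 10 libraries and 5.90 with CLIPper values below 0.001.

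Limits: 5 biological libraries set the smallest p above 0.05, peaks of a library are not independent, and CD11b+ cells have 2 biological libraries. The depth of the inputs is unknown and its part in removal was not tested, and a missing input peak is no evidence of missing RNA. Gene names in peaks often belong to hosts of small RNAs. Expression values pool both genotypes and miss most small RNAs. The sequence around the midpoint of many intronic peaks has further copies in the genome. Whether whole reads at such places can be assigned to a single copy was not tested.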
